A study of Mus musculus with 16 samples.

Results

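Chemokines are small secreted proteins that direct the migration of leukocytes, and their receptors are G protein-coupled receptors of the cell surface. They were followed here as RNA levels in cells of the mouse small intestine. The members were all genes whose symbol begins with Ccl, Cxcl, Ccr, Cxcr or Ackr and continues with a number, together with Cx3cl1, Cx3cr1 and Xcr1, each read from its brightest probe set that carries a single gene symbol. This gave 55 genes of 22180 with such a probe set, of which 33 are ligands and 22 are receptors. Of the 55, 46 lay above the level taken as dim (2.67 on the log2 scale) in at least 1 group and were tested among 18095 genes. The other 9 (Ccl22, Ccl24, Ccr1l1, Ccr2, Ccr3, Ccr8, Ccr10, Cxcr5 and Ackr1) had values between 1.41 and 3.03 in all samples.

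The 5 groups came from the small intestine of C57Bl/6 mice aged 8 to 10 weeks and labelled male. Adenoma cells came from 4 Apc+/1638N animals (P21, P23, P34 and P36, on 6 arrays), which carry a mutant allele of Apc, the negative regulator of Wnt signalling, beside a normal one. All other groups were wild type. Myofibroblasts, the contractile matrix-producing cells of the stroma, were profiled in co-culture with epithelium (n = 3 animals) and in monoculture (n = 3, the same animals, Pl_I, Pl_II and Pl_III). Crypt epithelium grown as organoids was profiled in co-culture with myofibroblasts (n = 2 animals) and in monoculture (n = 2, the same animals, P28 and P30). In co-culture both cell types shared medium for 24 h across a membrane with pores of 0.4 µm, so direct contact was prevented. The adenoma labels do not give the culture conditions of those cells, and they add n=3 to each sample without saying what was counted.

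Values are log2 levels. Differences between groups are given on the log2 scale with the SE of the limma fit. Adjusted p-values are Benjamini-Hochberg adjusted over the 18095 genes, and a member is called at an adjusted p under 0.05. The background given beside each count is the percentage of all tested genes called in the same direction. The number of arrays limits the precision, and array medians lay between 3.48 and 3.58. Levels of different genes are not comparable with each other, since each probe set has its own response. In these bulk samples, fewer cells of a type and less RNA per cell cannot be told apart.

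The labelled cell types carried their markers. The 12 epithelial markers averaged 9.51 to 10.63 in adenoma, 3.21 to 3.68 in all fibroblast cultures, 11.30 to 11.45 in co-cultured epithelium and 10.99 to 11.08 in monocultured epithelium, and the 12 fibroblast markers on the array averaged 10.15 to 10.38 in fibroblast cultures and at most 3.40 elsewhere. The fibroblast cultures also carried markers of macrophages. The 13 macrophage markers averaged 3.67 to 3.82 in adenoma, 8.37 to 8.66 in co-cultured fibroblasts, 8.28 to 8.54 in monocultured fibroblasts, 4.01 to 4.09 in co-cultured epithelium and 3.75 to 3.88 in monocultured epithelium. Among them the macrophage adhesion receptor Adgre1 lay between 8.84 and 9.37 in the fibroblast cultures and at most at 3.13 in all other samples. The average of dendritic cell markers was also higher there, though not every marker was: the 7 on the array averaged 3.31 to 3.56 in adenoma, 3.87 to 4.05 in co-cultured fibroblasts, 3.80 to 4.20 in monocultured fibroblasts, 3.18 to 3.30 in co-cultured epithelium and 3.30 to 3.36 in monocultured epithelium. Of the 6 tested, 3 (Itgax, Cd209a and Zbtb46) were called higher in fibroblast than in epithelium monoculture, and Flt3, Batf3 and Clec10a were not called. Between the co-cultures 2 of the 6 were called higher in fibroblasts. Neutrophil markers averaged at most 3.10, lymphocyte markers at most 2.77 and endothelial markers at most 3.76 in every sample. Which cells of the fibroblast cultures held the chemokine RNA was not measured. In both cultures of P28 and of Pl_III the X-inactivation transcript Xist and the Y-linked Eif2s3y went against the label male, and the labels of the third fibroblast monoculture array name different animals, of which the title's Pl_III was followed.

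Ligands are commonly grouped by the cells they attract. CXC ligands such as Cxcl1, Cxcl2, Cxcl3 and Cxcl5 act through Cxcr2 on neutrophils, Cxcl9, Cxcl10 and Cxcl11 act through Cxcr3 on activated T cells, and Ccl2, Ccl7, Ccl8 and Ccl12 act on monocytes, mainly through Ccr2. In the intestine, Ccl25 and Ccl28 are products of the epithelium that guide lymphocytes bearing Ccr9 and Ccr10 to the mucosa. Many inflammatory ligands are transcribed under NF-kB, and Cxcl10 also under interferon signalling. RefSeq promoter windows were given for 41 of the 55 members, and the 250 bases before the transcription start are printed (5′ to 3′, strand of the gene, build GRCm38.p6) for the neighbouring neutrophil ligands Cxcl1, Cxcl2 and Cxcl3 and for Cxcl10. They are shown because their windows hold a match to a motif below and their levels differ widely between the fibroblast animals, and other ligands with the same order of animals are not printed. Capitals mark matches to 3 motifs searched on both strands: GGGANTTTC and GGGANTTCC, which are forms of the NF-kB motif, and GAAANTGAA, a form of the interferon response motif. No marked matches overlap within these 4 sequences.
Cxcl1, chr5:90890995-90891244, plus strand: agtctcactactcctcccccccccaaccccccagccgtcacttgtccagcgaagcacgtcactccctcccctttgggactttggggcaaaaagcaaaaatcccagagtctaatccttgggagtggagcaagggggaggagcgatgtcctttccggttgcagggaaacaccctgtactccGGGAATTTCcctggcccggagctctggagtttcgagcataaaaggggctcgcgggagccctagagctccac
Cxcl2, chr5:90903649-90903898, plus strand: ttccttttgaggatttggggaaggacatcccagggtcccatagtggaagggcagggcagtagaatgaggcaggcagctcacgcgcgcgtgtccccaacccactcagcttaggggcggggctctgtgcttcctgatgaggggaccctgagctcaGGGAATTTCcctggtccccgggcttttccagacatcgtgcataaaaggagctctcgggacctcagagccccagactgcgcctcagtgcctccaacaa
Cxcl3, chr5:90785851-90786100, plus strand: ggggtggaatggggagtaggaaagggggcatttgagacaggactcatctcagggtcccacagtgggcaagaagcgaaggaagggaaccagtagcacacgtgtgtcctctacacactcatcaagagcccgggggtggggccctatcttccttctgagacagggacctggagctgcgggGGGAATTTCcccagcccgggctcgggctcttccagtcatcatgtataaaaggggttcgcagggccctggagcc
Cxcl10, chr5:92348890-92349139, minus strand: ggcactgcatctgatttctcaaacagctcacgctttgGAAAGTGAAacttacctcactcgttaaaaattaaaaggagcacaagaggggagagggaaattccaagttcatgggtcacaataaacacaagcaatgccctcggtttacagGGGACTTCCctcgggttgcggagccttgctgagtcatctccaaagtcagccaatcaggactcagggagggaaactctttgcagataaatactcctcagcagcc

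GGGANTTTC was found in 6 of the 41 members with a window and in 0.941% of all 32851 windows. The 6 were Cxcl1 (from base -71 to -63, counted from the start site), Cxcl2 (-97 to -89), Cxcl3 (-73 to -65), Cxcl9, Cxcr2 and Ccr3. GGGANTTCC was found in 3 members, Cxcl10 (-103 to -95), Cxcl9 and Ccr6, and in 1.43% of all windows. GAAANTGAA was found in 2 members, Cxcl10 (-213 to -205) and Cxcr1, and in 1.75% of all windows. Of the 17 members highest in fibroblasts, 11 had a window and 3 of them held a form of the NF-kB motif. So did 4 of 21 members with a window that were not assigned, 1 of 6 dim ones and 0 of 3 highest in epithelium. A match describes letters in a window and is neither a site nor a cause.

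**Figure D1:**
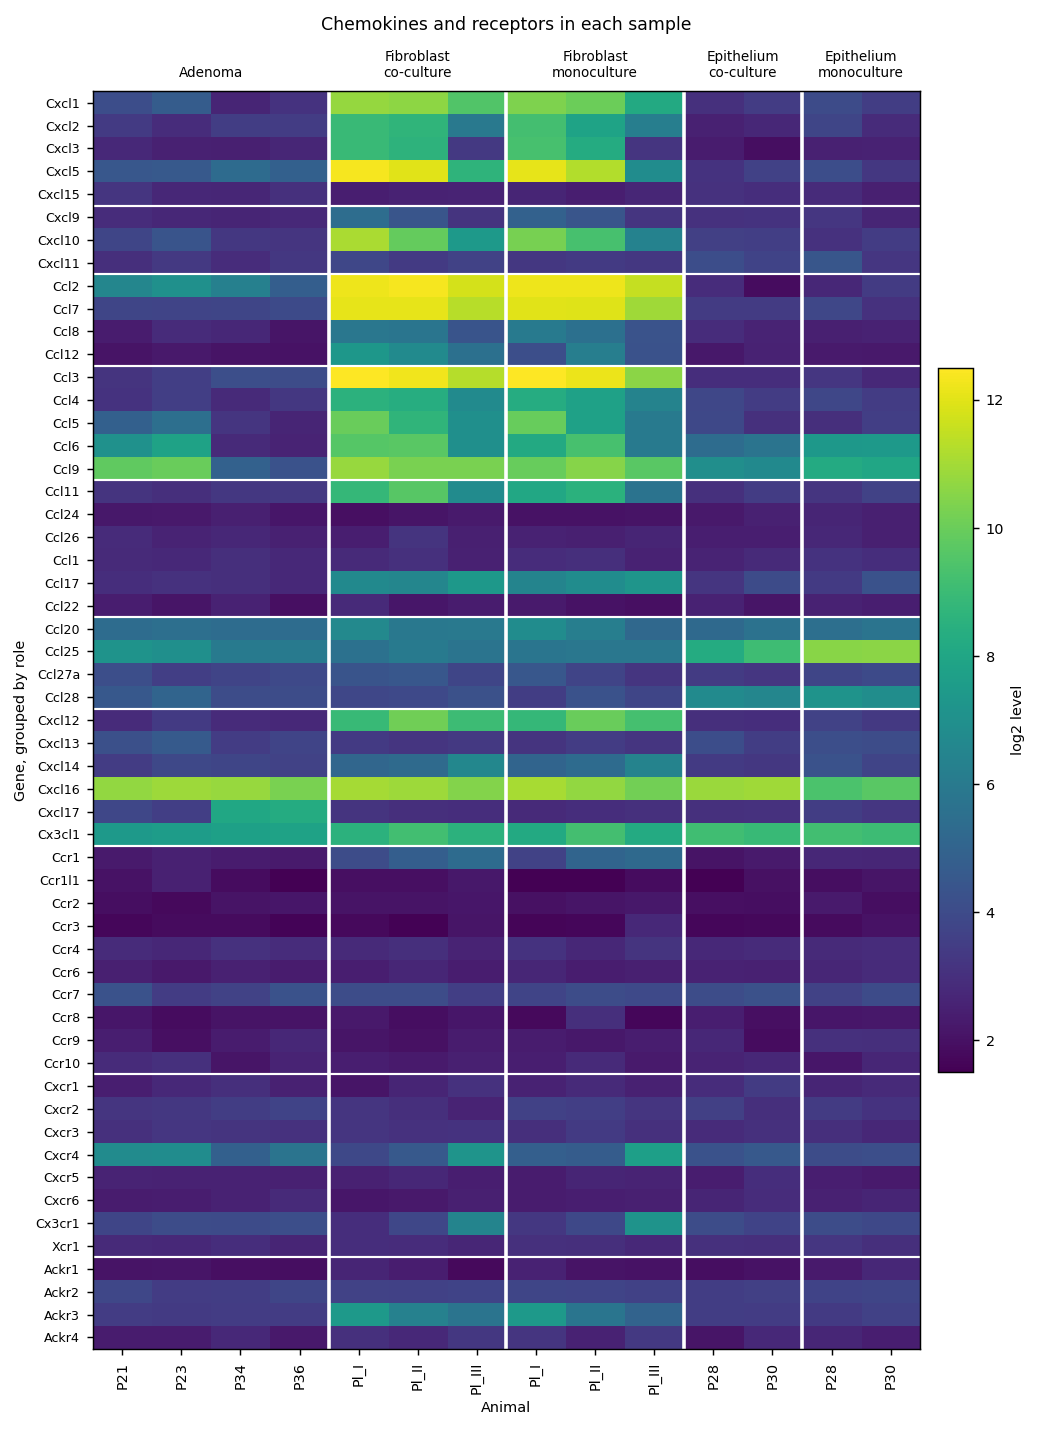
Log2 level (colour) of all 55 chemokine and receptor genes (rows, grouped by role) in the 14 biological samples (columns, by group and animal). Rows are to be read across samples: the upper rows are bright in the 6 fibroblast cultures, Ccl25 is brightest in monocultured epithelium (10.56 and 10.58), and Cxcl17 is bright in adenoma animals P34 and P36 (8.06 and 8.28).

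Which cell type held each member was asked by setting fibroblasts, epithelium and adenoma against each other. A member was assigned to a cell type where that group was called higher than both others, with monocultures used for fibroblasts and epithelium, and these comparisons share samples. Fibroblast cultures were assigned 17 members: the ligands Cxcl1, Cxcl2, Cxcl5, Cxcl10, Cxcl12, Cxcl14, Ccl2, Ccl3, Ccl4, Ccl5, Ccl7, Ccl8, Ccl11, Ccl12 and Ccl17 and the receptors Ccr1 and Ackr3. Monocultured epithelium was assigned 3 members, the ligands Ccl25 and Ccl28 and the receptor Ccr9. No member was called higher in adenoma than in both other cell types, 26 tested members were not assigned, and the 9 dim ones were not tested. The share of all genes that this rule assigns to each cell type was not counted. No excess or lack among the members can therefore be read from these counts.

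In fibroblast monoculture against epithelium monoculture, 18 of the 46 tested members were higher, beside a background of 26.5% of all genes, and 4 were lower (Ccl25, Ccl28, Cxcl13 and Ccr9), beside a background of 24.2%. The median difference was 0.64 over the 46 members and -0.02 over all genes tested. Ligands of the neutrophil, monocyte and macrophage inflammatory classes had median differences of 4.43, 5.49 and 3.86, while the mucosal and skin ligands had a median of -1.62. In co-culture, fibroblasts against epithelium, 19 members were higher (background 23.9%) and 4, Ccl25, Ccl28, Cxcl15 and Cxcr6, were lower (background 21.2%).

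The monocyte ligands were all higher in fibroblasts. Ccl2, the main monocyte attractant, had levels of 12.23, 12.36 and 11.81 in co-cultured fibroblasts, 12.22, 12.20 and 11.54 in monocultured fibroblasts, 2.91 and 1.88 in co-cultured epithelium and 2.74 and 3.41 in monocultured epithelium. All fibroblast samples lay far above all epithelial ones, and the monocultures differed by 8.91 ± 0.54 (adjusted p = 4.39e-08). Ccl7, a monocyte attractant encoded beside Ccl2, had 12.11, 12.11 and 11.31 in co-cultured and 12.00, 11.98 and 10.93 in monocultured fibroblasts, against 3.42 and 3.40 in co-cultured and 3.84 and 3.06 in monocultured epithelium. Its difference of 8.19 ± 0.34 (adjusted p = 1.62e-09) was again free of overlap, with Pl_III the lowest fibroblast animal in both cultures. Ccl8 and Ccl12, further ligands of this class, differed by 2.79 ± 0.49 and 2.60 ± 0.57, and neither overlapped between fibroblast and epithelial monocultures.

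Among the macrophage inflammatory ligands, Ccl3, which acts through Ccr1, had 12.49, 12.28 and 11.29 in co-cultured and 12.49, 12.16 and 10.58 in monocultured fibroblasts, against 2.94 and 2.94 in co-cultured and 3.23 and 2.78 in monocultured epithelium. The monocultures differed by 8.74 ± 0.52 (adjusted p = 3.51e-08), with no overlap. Ccl5, an attractant of T cells and monocytes, varied widely between the fibroblast animals, with 9.98, 8.68 and 6.96 in co-culture and 9.94, 7.79 and 5.99 in monoculture for Pl_I, Pl_II and Pl_III, against 3.90 and 3.02 in co-cultured and 2.98 and 3.53 in monocultured epithelium. Its lowest fibroblast sample still lay above the highest epithelial one, and the monocultures differed by 4.66 ± 1.15 (adjusted p = 0.00481). Ccl4, encoded beside Ccl3, differed by 3.86 ± 0.55 (adjusted p = 8.74e-05). Ccl6 and Ccl9, ligands of Ccr1 in the mouse, were present in both cell types: monocultured fibroblasts had 8.19, 9.29 and 6.00 for Ccl6 and 9.94, 10.50 and 9.69 for Ccl9, and monocultured epithelium had 7.35 and 7.44 for Ccl6 and 8.21 and 8.00 for Ccl9. For Ccl6 the groups overlapped and for Ccl9 they did not, and neither was called. The fit shares 1 spread over the 5 groups, and the adenoma SD was 2.76 for Ccl6 and 3.08 for Ccl9. For Ccl9 the SD was 0.42 in monocultured fibroblasts and 0.15 in monocultured epithelium. The missing call is therefore not evidence of equal levels.

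The neutrophil ligands varied widely between the fibroblast animals. Cxcl5 had 12.35, 12.00 and 8.65 in co-cultured and 12.07, 11.23 and 6.83 in monocultured fibroblasts (Pl_I, Pl_II and Pl_III), against 3.11 and 3.64 in co-cultured and 4.09 and 3.30 in monocultured epithelium. Both cultures of Pl_III lay below those of the other fibroblast animals and above all epithelial samples, and the monocultures differed by 6.35 ± 1.34 (adjusted p = 0.00167). Without Pl_III the difference was 7.95 (adjusted p = 5.85e-08). Cxcl1 had 10.75, 10.63 and 9.50 in co-cultured and 10.37, 10.03 and 8.19 in monocultured fibroblasts, against 3.03 and 3.47 in co-cultured and 4.00 and 3.48 in monocultured epithelium, a monoculture difference of 5.79 ± 0.69 (adjusted p = 1.72e-05) without overlap. Cxcl2 had 8.98, 8.71 and 5.95 in co-cultured and 9.19, 7.86 and 6.21 in monocultured fibroblasts, against 2.51 and 2.74 in co-cultured and 3.78 and 2.87 in monocultured epithelium. It differed by 4.43 ± 0.88 (adjusted p = 0.00108), and Pl_III was again lowest without reaching the epithelial values.

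Cxcl3 showed the same order of animals in a sharper form, with 8.95, 8.62 and 3.33 in co-cultured and 9.28, 8.29 and 3.18 in monocultured fibroblasts, against 2.33 and 1.92 in co-cultured and 2.50 and 2.53 in monocultured epithelium. Pl_III lay near the epithelial samples, and the monoculture difference of 4.40 ± 1.72 was not called (adjusted p = 0.0501). It was called with the animal as a random replicate block (adjusted p = 0.0213) and without Pl_III. Cxcl15, a lung-associated ligand of the class, had at most 3.20 in any sample.

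Of the T cell attractants that interferon induces, Cxcl10 had 11.12, 9.89 and 7.43 in co-cultured and 10.26, 9.31 and 6.36 in monocultured fibroblasts, against 3.58 and 3.55 in co-cultured and 3.06 and 3.44 in monocultured epithelium. All fibroblast samples were higher, with Pl_I highest and Pl_III lowest in both cultures, and the monocultures differed by 5.40 ± 1.08 (adjusted p = 0.00114). Cxcl9 had 5.42, 4.40 and 3.14 in co-cultured and 4.91, 4.41 and 3.19 in monocultured fibroblasts, overlapping monocultured epithelium at 3.22 and 2.62, and its difference of 1.25 ± 0.57 was not called (adjusted p = 0.0868), though it was with the animal as a random replicate block (adjusted p = 0.0497). Cxcl11 lay between 2.91 and 4.45 across all samples. Over the 15 ligands assigned to fibroblasts, Pl_III was the lowest animal in both cultures for 11, and the highest in both for 2, Ccl17 and Cxcl14. The share of all genes with either order was not counted, so the order cannot be read as particular to these ligands. In Pl_I, Pl_II and Pl_III the macrophage markers averaged 8.66, 8.37 and 8.60 in co-culture and 8.52, 8.28 and 8.54 in monoculture, so Pl_II was lowest. The neutrophil markers averaged 3.10, 3.02 and 2.60 in co-culture and 2.98, 2.73 and 2.35 in monoculture, so Pl_III was lowest as for the ligands, at levels near the dim one. The part of either in the order of animals was not tested. Nor was that of the conflicts of Pl_III with its sex label and animal name, given above.

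The stromal ligand Cxcl12, which retains leukocytes and progenitors through Cxcr4, had 8.92, 10.11 and 9.06 in co-cultured and 8.85, 9.99 and 9.24 in monocultured fibroblasts, against 3.00 and 2.92 in co-cultured and 3.66 and 3.32 in monocultured epithelium. It differed by 5.87 ± 0.37 (adjusted p = 6.63e-08), and Pl_II was the highest fibroblast animal in both cultures. Ccl11, an attractant of eosinophils, had 8.81, 9.65 and 6.81 in co-cultured and 8.11, 8.54 and 5.70 in monocultured fibroblasts, against 3.03 and 3.46 in co-cultured and 3.18 and 3.66 in monocultured epithelium, a difference of 4.03 ± 0.81 (adjusted p = 0.00123). Ccl17, a ligand of Ccr4, differed by 3.02 ± 0.33 and Cxcl14, a ligand of epithelia and stroma, by 1.61 ± 0.44. The call of Cxcl14 was lost without monocultured epithelium of P30 (adjusted p = 0.0771).

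Cxcl16, a membrane-bound ligand of Cxcr6, was high in every group: 10.74, 10.88, 10.81 and 10.29 in adenoma, 11.02, 10.88 and 10.46 in co-cultured fibroblasts, 11.07, 10.72 and 10.16 in monocultured fibroblasts, 10.84 and 10.91 in co-cultured epithelium and 9.37 and 9.67 in monocultured epithelium. Both monocultured epithelial samples lay below every other sample. Fibroblast monoculture was higher than it by 1.13 ± 0.26 (adjusted p = 0.00334), whereas in co-culture fibroblasts and epithelium differed by -0.09.

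**Figure D2:**
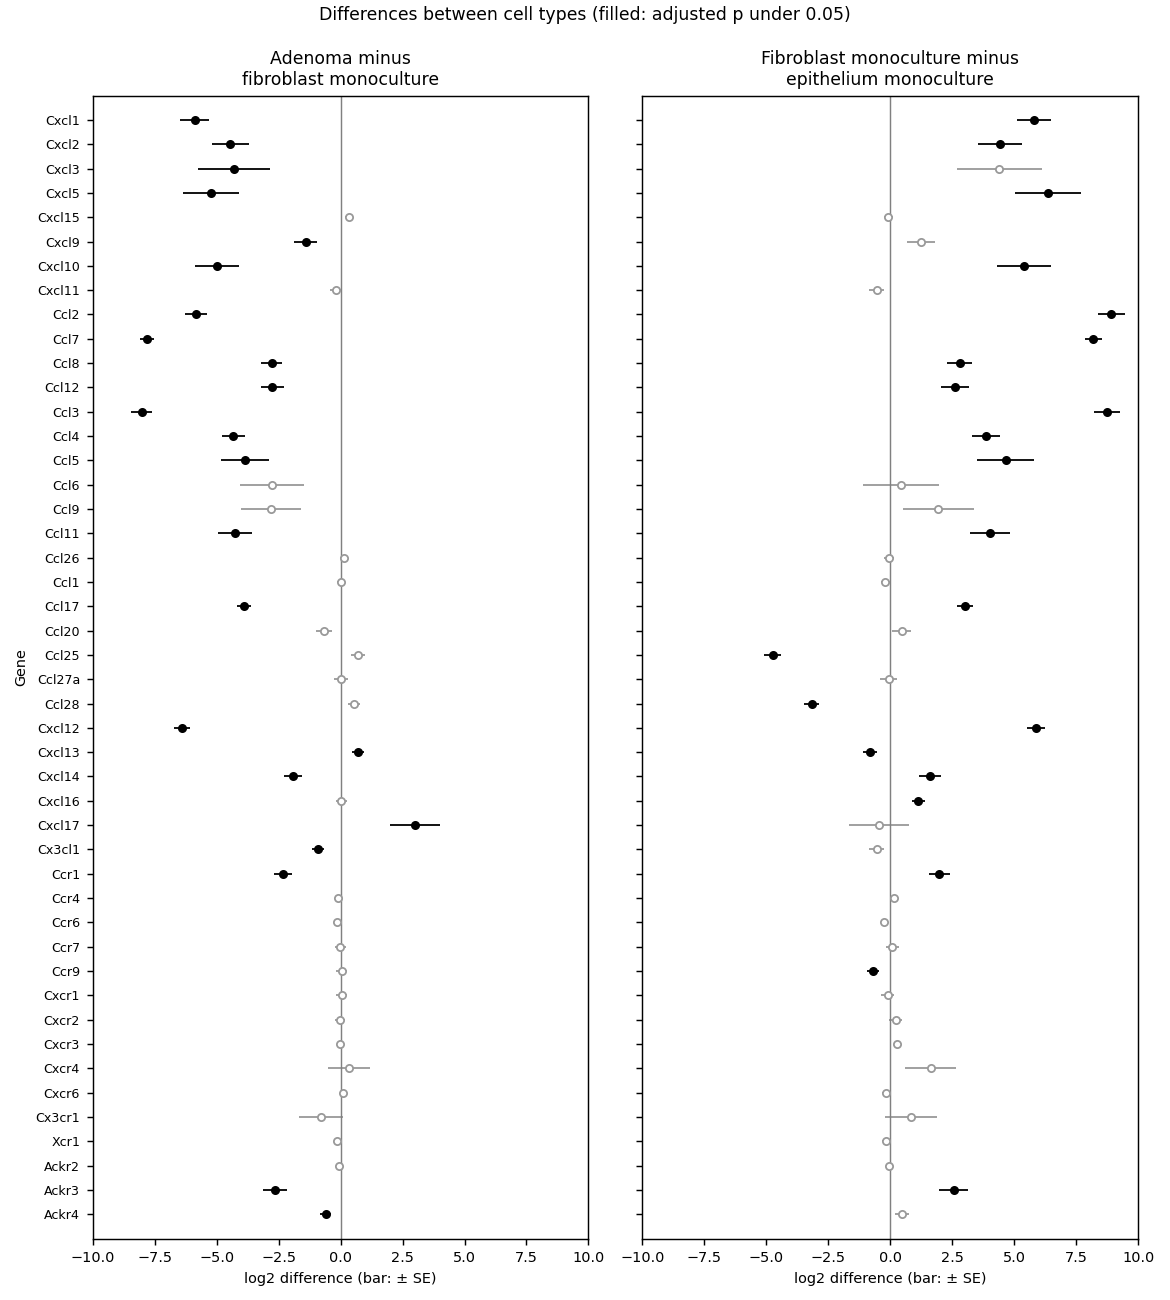
Log2 difference ± SE of the 46 tested members (rows) for adenoma minus fibroblast monoculture (left, n = 4 and 3) and fibroblast monoculture minus epithelium monoculture (right, n = 3 and 2), with filled points for an adjusted p under 0.05. Ccl2, Ccl3 and Ccl7 have the largest differences on the right (8.91, 8.74 and 8.19), and Ccl25 and Ccl28 lie on the opposite side there (-4.73 and -3.17).

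The members assigned to epithelium were Ccl25, Ccl28 and Ccr9. Ccl25 had 7.17, 6.96, 6.00 and 6.03 in adenoma (P21, P23, P34 and P36), 5.58, 5.97 and 5.74 in co-cultured fibroblasts, 5.77, 5.87 and 5.88 in monocultured fibroblasts, 8.29 and 9.10 in co-cultured epithelium and 10.56 and 10.58 in monocultured epithelium. The epithelial groups overlapped neither with each other nor with any other group, and fibroblast monoculture differed from epithelium monoculture by -4.73 ± 0.34 (adjusted p = 2.19e-07). Ccl28 had 4.52, 5.03, 4.07 and 4.04 in adenoma, 3.86, 3.92 and 4.21 in co-cultured fibroblasts, 3.50, 4.26 and 3.80 in monocultured fibroblasts, 6.78 and 6.57 in co-cultured epithelium and 7.15 and 6.91 in monocultured epithelium. It separated epithelium from the rest, with a difference of -3.17 ± 0.29 (adjusted p = 1.84e-06) in fibroblast monoculture against epithelium monoculture.

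Ccr9, the receptor of Ccl25, was near the dim level throughout, with 2.42, 1.94, 2.34 and 2.74 in adenoma, 2.14, 1.99 and 2.34 in co-cultured fibroblasts, 2.35, 2.22 and 2.38 in monocultured fibroblasts, 2.74 and 1.87 in co-cultured epithelium and 3.03 and 2.99 in monocultured epithelium. Its difference of -0.69 ± 0.25 in fibroblast monoculture against epithelium monoculture (adjusted p = 0.0391) lost its call in 9 of 14 alternatives, leaving out any of the 5 samples compared among them. Cxcl13, a B cell attractant, had 3.16, 3.46 and 3.20 in monocultured fibroblasts, against 4.15 and 4.06 in monocultured epithelium, a difference of -0.83 ± 0.28 (adjusted p = 0.0282) that was lost in 7 of 15 alternatives, leaving out any of 4 samples among them (every sample compared except monocultured fibroblasts of Pl_II). Ccl20, the ligand of Ccr6 on lymphocytes, lay between 5.22 and 6.84 in all samples and was called in none of these comparisons.

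Of the 22 receptors 18 had at most 4.29 in any sample. Ccr1, the receptor of Ccl3 and Ccl5 on myeloid cells, had 4.07, 4.80 and 5.36 in co-cultured and 3.69, 5.06 and 5.27 in monocultured fibroblasts, at most 2.49 in adenoma, 2.09 and 2.27 in co-cultured and 2.72 and 2.68 in monocultured epithelium. It was higher in fibroblast than in epithelium monoculture by 1.97 ± 0.42 (adjusted p = 0.00176). The scavenging receptor Ackr3, which binds Cxcl12, had 7.45, 6.34 and 5.74 in co-cultured and 7.42, 5.76 and 5.01 in monocultured fibroblasts, against 3.48 and 3.46 in co-cultured and 3.39 and 3.64 in monocultured epithelium. It differed by 2.55 ± 0.58 (adjusted p = 0.0028), with no overlap and Pl_I highest in both cultures.

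The Cxcl12 receptor Cxcr4 had 3.87, 4.57 and 7.18 in co-cultured and 4.82, 4.68 and 7.71 in monocultured fibroblasts (Pl_I, Pl_II and Pl_III), and the fractalkine receptor Cx3cr1 of monocytes and macrophages had 2.93, 3.86 and 6.46 in co-cultured and 3.30, 3.89 and 7.16 in monocultured fibroblasts. Both receptors were high in the 2 cultures of Pl_III and low in those of the other fibroblast animals. Neither was called in a comparison between cell types. Their SD in monocultured fibroblasts, 1.71 for Cxcr4 and 2.08 for Cx3cr1, enters the shared spread, so the missing calls are not evidence of equal levels. Cxcr4 was 4.87 to 6.86 in adenoma, above all epithelial samples (4.07 to 4.57). Ccr2, the receptor of Ccl2, was dim, with at most 2.28 in any sample. Ccr4, Ccr6, Ccr7, Ccr9, Cxcr1, Cxcr2, Cxcr3, Cxcr6, Xcr1, Ackr2 and Ackr4 made up the 11 other receptors tested, with values between 1.87 and 4.29.

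Other genes of the pathway were counted from chosen lists in fibroblast against epithelium monoculture, beside the background of 26.5% higher and 24.2% lower. Of 23 tested NF-kB and inflammatory genes 17 were higher and 0 lower, among them the colony-stimulating factor Csf1 (7.48 ± 0.31), the adhesion molecule Vcam1 (7.60 ± 0.37), Tnfaip2 (6.01 ± 0.33) and the cytokine Il1b (6.51 ± 0.48). Of 21 genes of chemokine receptor signalling 13 were higher and 3 lower, with the leukocyte GTPase Rac2 at 5.05 ± 0.29 and the arrestin Arrb1 at -2.05 ± 0.21. Of 15 genes of chemokine presentation and processing 11 were higher and 1 was lower, the lower one being the chemokine-cleaving peptidase Dpp4 (-7.44 ± 0.38), while the heparan sulfate proteoglycans Sdc3 and Sdc2 were higher by 6.77 ± 0.23 and 6.65 ± 0.34. Of 12 interferon regulators and targets 3 were higher and 3 lower, shares close to the background. Of 6 family genes whose symbols fall outside the naming rule 4 were higher, Ccrl2, Cklf, Pf4 and Mif, by 1.48 to 4.43. In the same comparison 12 of 13 macrophage markers were higher and 0 lower, as were 3 of 6 dendritic cell markers, and the part of both in the results on fibroblast cultures was not tested.

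Whether epithelium changes its chemokines when myofibroblasts share its medium was the next comparison. In co-cultured against monocultured epithelium 2 of the 46 members were called. Cxcl16 was higher (2.17% of the members, background 2.71%) and Ccl25 lower (2.17%, background 1.32%). With 1 member each way, these shares are near the background. Ccl25 was 8.29 and 9.10 in co-culture, against 10.56 and 10.58 in monoculture, and fell by 1.88 ± 0.38 (adjusted p = 0.0184). It was lower in both animals, by -2.28 in P28 and -1.48 in P30. Cxcl16 was 10.84 and 10.91 in co-culture, against 9.37 and 9.67 in monoculture, and rose by 1.36 ± 0.29 (adjusted p = 0.0233), with increases of 1.47 in P28 and 1.25 in P30.

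These calls rest on 2 animals. Leaving out a single sample gave adjusted p-values of 0.03 to 0.142 for Ccl25, which remained called only without co-cultured P30, and of 0.061 to 0.165 for Cxcl16, which was called in none of these 4 fits. Samples with the same animal deviated together. In limma a replicate block for the animal gave calls for 5 of 46 members, a share near the 10.6% of all genes. They were Cxcl16 higher and Ccl25, Ccl6, Ccl9 and Cxcl14 lower (adjusted p = 0.00426 for Cxcl16 and 0.00454 for Ccl25). This block also takes the differences between adenoma animals out of the shared spread, and these were wide for Ccl6 and Ccl9 (adenoma SD 2.76 and 3.08). Ccl6 was 5.40 and 5.74 in co-culture, against 7.35 and 7.44 in monoculture, and Ccl9 was 6.94 and 6.73, against 8.21 and 8.00. Neither overlapped between the cultures. Cxcl14 was 3.38 and 3.28 in co-culture, against 4.26 and 3.75 in monoculture. Of the macrophage markers Laptm5 (1.26 ± 0.25) and Mrc1 (1.34 ± 0.29) rose in co-cultured epithelium, 2 of 13, and the part of such cells in the result was not tested. Adgre1 was 2.48 and 2.38 in co-culture, against 3.13 and 2.94 in monoculture.

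**Figure D3:**
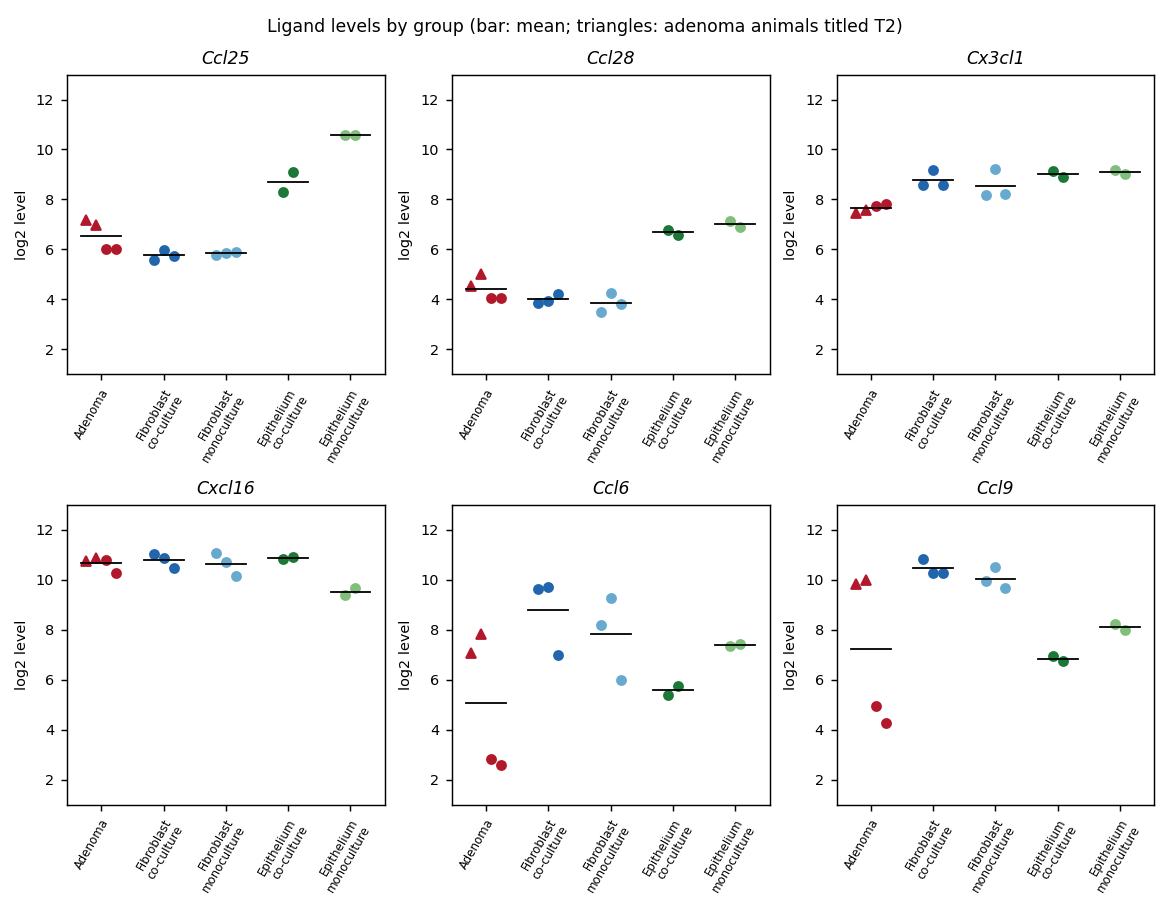
Log2 level of 6 ligands (panels) in each sample (points) of the 5 groups, with the group mean as a bar and triangles for adenoma animals P21 and P23, whose titles carry T2. Ccl25 is at 10.56 and 10.58 in monocultured epithelium and at 8.29 and 9.10 in co-culture, Cxcl16 is lowest in monocultured epithelium, and Ccl6 and Ccl9 separate the adenoma animals.

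In fibroblasts the reverse question, whether epithelium changes the chemokines of myofibroblasts, gave no call. With limma 0 of 46 members were called higher (background 0%) and 0 lower (background 0.00553%), and 2 members had an unadjusted p under 0.05, as did 513 of all 18095 genes. The largest difference was that of Ccl12, with 7.34, 6.76 and 5.54 in co-culture, against 4.13, 6.20 and 4.26 in monoculture. It was higher in each animal, by 3.21, 0.56 and 1.28, and differed by 1.68 ± 0.51 (unadjusted p = 0.00659, adjusted p = 1, limma). Of the 46 members 13, or 28.3%, were higher in co-culture in each of the 3 animals (Cxcl1, Cxcl5, Cxcl10, Cxcl11, Ccl2, Ccl3, Ccl4, Ccl5, Ccl6, Ccl7, Ccl11, Ccl12 and Ackr3), beside 15.3% of all genes. Lower in each were 5, or 10.9% (Ccr9, Cxcr2, Cxcr4, Cx3cr1 and Xcr1), beside 14.1% of all genes.

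Within this set Ccl11 was higher by 0.70, 1.11 and 1.11 in Pl_I, Pl_II and Pl_III, and Cxcl10 by 0.85, 0.58 and 1.06. Cxcl5 was higher by 0.28, 0.77 and 1.82 and Cxcl1 by 0.38, 0.60 and 1.32. None was called. In a fit with a replicate block for each animal, which removes the differences between animals, 0 of 46 members were called again in limma, and 11 had an unadjusted p under 0.05, as did 1352 of all genes. The smallest adjusted p was that of Ccl11 (0.97 ± 0.12, unadjusted p = 0.000141, adjusted p = 0.365), followed by Cxcl10 (0.83 ± 0.14, unadjusted p = 0.000774, adjusted p = 0.419). The macrophage marker averages given above were also higher in co-culture in each animal, by a smaller amount, and their part was not tested. Of 12 interferon regulators and targets 0 were called in limma, and 2 had an unadjusted p under 0.05. All 12 had a higher mean in co-culture, beside 50.8% of all genes, and 8 were higher in each animal. The differences were 1.82 ± 0.79 for Ifit1 (unadjusted p = 0.0403), 1.12 ± 0.59 for Isg15, 1.00 ± 0.51 for Irf7 and 0.85 ± 0.31 for Irf9 (unadjusted p = 0.0189), each with an adjusted p of 1. In Pl_I, Pl_II and Pl_III the list averaged 9.15, 8.25 and 7.97 in co-culture, against 8.25, 7.82 and 7.76 in monoculture. The co-culture responses of epithelium and fibroblasts were set against each other in an interaction term, which called 0 of 46 members in limma, beside 1.11% of all genes, and 2 had an unadjusted p under 0.05. With the animal as a replicate block it called 5, beside 4.76% of all genes: Cxcl16 positive, that is, higher in epithelium's response, and Ccl6, Ccl9, Ccl11 and Ccl25 negative. Here too the block takes the differences between adenoma animals out of the shared spread.

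**Figure D4:**
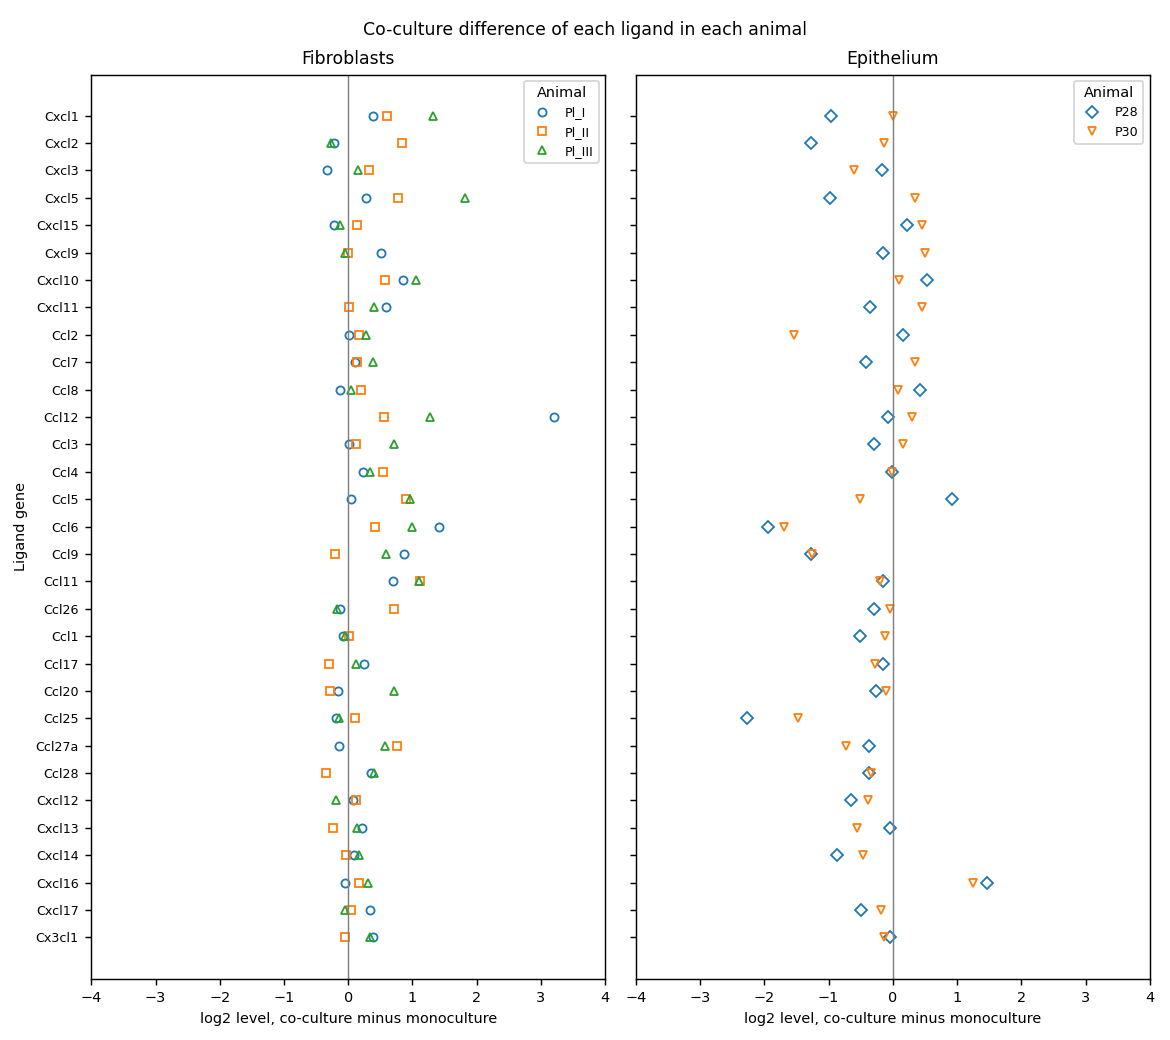
Log2 level in co-culture minus monoculture of each tested ligand (rows) in each fibroblast animal (left, n = 3) and each epithelial animal (right, n = 2). Ccl12 of Pl_I stands out on the left (3.21), and Ccl25 (-2.28 and -1.48), Ccl6 (-1.95 and -1.70) and Cxcl16 (1.47 and 1.25) on the right.

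The adenoma samples addressed how chemokines differ in Apc-mutant tumour cells. Against monocultured epithelium 2 members were higher, Ccl2 and Cxcl16 (background 22.5%), and 6 were lower, Ccl25, Ccl28, Cx3cl1, Ccl17, Ccr9 and Ccr6 (background 18.5%). Against co-cultured epithelium Ccl2 was higher (background 19.0%) and Ccl25, Ccl28 and Cx3cl1 were lower (background 14.3%). The median difference from monocultured epithelium was -0.09 over the members and -0.03 over all genes. Both comparisons share the adenoma samples. A missing call is again not evidence of equal levels, since the shared spread includes the fibroblast animals. Cxcl5, for example, was 4.48 to 5.33 in adenoma and at most 4.09 in epithelium, and Cxcr4 was 4.87 to 6.86 and at most 4.57. Neither was called, and their SD in monocultured fibroblasts was 2.81 and 1.71.

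The mucosal homing ligands were lower in adenoma. Ccl25, with the sample values given above, was lower than in monocultured epithelium by -4.03 ± 0.33 (adjusted p = 1.35e-06) and than in co-cultured epithelium by -2.15 ± 0.33 (adjusted p = 0.000336). Adenoma levels of Ccl25 lay below all epithelial samples and above all fibroblast ones, and the difference of 0.70 ± 0.29 from monocultured fibroblasts was not called (adjusted p = 0.0654). Ccl28 was lower by -2.62 ± 0.28 (adjusted p = 1.19e-05) and -2.26 ± 0.28 (adjusted p = 7.36e-05), without overlap. Cx3cl1, the membrane-bound ligand of Cx3cr1, had 7.46, 7.56, 7.75 and 7.82 in adenoma, 8.57, 9.18 and 8.57 in co-cultured fibroblasts, 8.18, 9.22 and 8.23 in monocultured fibroblasts, 9.12 and 8.90 in co-cultured epithelium and 9.16 and 9.03 in monocultured epithelium. Adenoma was the lowest group, by -1.44 ± 0.28 against monocultured epithelium (adjusted p = 0.00105), by -1.36 ± 0.28 against co-cultured epithelium (adjusted p = 0.00234) and by -0.89 ± 0.24 against monocultured fibroblasts (adjusted p = 0.00915).

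Ccl2 had 6.54, 7.01, 6.28 and 4.79 in adenoma, against 2.91 and 1.88 in co-cultured and 2.74 and 3.41 in monocultured epithelium. All adenoma animals lay above all epithelial samples and below all fibroblast ones. The differences were 3.08 ± 0.51 from monocultured epithelium (adjusted p = 0.000391), 3.77 ± 0.51 from co-cultured epithelium (adjusted p = 0.000159) and -5.83 ± 0.45 from monocultured fibroblasts (adjusted p = 5.05e-07). Cxcl16 was higher than in monocultured epithelium by 1.16 ± 0.25 (adjusted p = 0.00248).

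The remaining adenoma calls were of low or unsteady members. Ccl17 had 2.92, 3.08, 2.98 and 2.77 in adenoma, against 3.37 and 4.27 in monocultured epithelium, and its difference of -0.88 ± 0.31 (adjusted p = 0.0407) was -0.43 without monocultured P30. Ccr6 had 2.46, 2.25, 2.52 and 2.34 in adenoma, against 2.67 and 2.86 in monocultured epithelium, a difference of -0.37 ± 0.13 (adjusted p = 0.0424). Ccr9 differed by -0.65 ± 0.24 (adjusted p = 0.0488). Ccl17, Ccr6 and Ccr9 lost their calls in 8 of 17, 10 of 15 and 12 of 16 alternatives. Macrophage markers were not raised as a group in adenoma, where 2 of 13 were higher (Cd68 and Cd14) and 3 lower (Itgam, Mrc1 and Adgre1) than in monocultured epithelium. Fibroblast markers averaged 3.02 to 3.39 in adenoma, against 3.28 to 3.40 in monocultured epithelium. Of the 12 epithelial markers 3 were lower and 1 higher than in monocultured epithelium, with Krt20 at -4.64 ± 0.55, Cdx2 at -1.72 ± 0.44 and Vil1 at -1.46 ± 0.28, and 4 were lower than in co-cultured epithelium. Their part in the lower Ccl25, Ccl28 and Cx3cl1 was not tested.

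Against monocultured fibroblasts, adenoma had 2 members higher, Cxcl13 and Cxcl17 (background 25.0%), and 21 lower (background 21.5%). The lower ones were the 17 members assigned to fibroblasts with Cxcl3, Cxcl9, Cx3cl1 and Ackr4. The differences of Ccl3 (-8.02 ± 0.43), Ccl7 (-7.79 ± 0.29), Cxcl12 (-6.39 ± 0.31), Cxcl1 (-5.89 ± 0.57), Ccl2 (-5.83 ± 0.45) and Cxcl5 (-5.23 ± 1.12) were the 6 largest. Cxcl3 and Cxcl9 lost their calls in 6 of 19 alternatives each, among them without adenoma P23, adenoma P34, fibroblast Pl_I or fibroblast Pl_II, while Ackr4 lost its call in 12 of 18 and Cxcl13 in 8 of 19. In adenoma Ccl3 had 3.16, 3.55, 4.15 and 4.04, and Ccl7 had 3.81, 3.77, 3.82 and 3.97. Cxcl12 had 2.84, 3.39, 2.87 and 2.78, Cxcl1 had 4.12, 4.68, 2.65 and 3.11, and Cxcl5 had 4.48, 4.58, 5.33 and 4.87. None of these reached the fibroblast samples given above, and 12 of 13 macrophage markers and 2 of 6 dendritic cell markers (Itgax and Cd209a) were lower in adenoma as well, whose part was not tested.

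Of the other pathway genes in adenoma against monocultured epithelium, where 22.5% of all genes were higher and 18.5% lower, 8 of 12 interferon regulators and targets were lower and 0 higher, among them Irf2 (-1.48 ± 0.14), Ifnar1 (-0.85 ± 0.12), Irf8 (-3.00 ± 0.51) and Irf7 (-2.63 ± 0.54). Of 23 NF-kB and inflammatory genes 5 were higher, a share near the background, and 1 was lower, with Rela at 1.03 ± 0.15, Csf1 at 1.96 ± 0.29 and the prostaglandin synthase Ptgs2 at 4.92 ± 0.74. Of 15 presentation and processing genes 6 were higher and 2 lower, and Dpp4 was lower by -7.34 ± 0.36. Of 21 signalling genes 2 were higher and 6 lower, with Arrb1 at -1.69 ± 0.20. Of 6 family genes outside the naming rule Cklf, Mif and Ccrl2 were higher, by 0.96 to 2.02.

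The 4 adenoma animals were not alike. The titles of P21 and P23 carry T2, whose meaning is not given, and those of P34 and P36 do not, and the comparison of these pairs was added after the values were seen. Over all probe sets the SD of the difference was 0.42 between P21 and P23 and 0.40 between P34 and P36, against 0.55 to 0.63 for the 4 pairs across them, and the technical repeats of P21 and P34 differed by 0.42 and 0.43. With n = 2 each, 3 members were higher in the T2 animals, Ccl9, Ccl6 and Ccl25 (background 3.65%), and Cxcl17 was lower (background 3.49%).

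Ccl9 had 9.82 and 9.97 in the T2 animals, against 4.93 and 4.25 in the others, a difference of 5.30 ± 0.29 (adjusted p = 5.77e-07). The T2 values lay near those of fibroblast cultures and the others below every epithelial sample. Ccl6 had 7.05 and 7.83, against 2.81 and 2.59, a difference of 4.74 ± 0.99 (adjusted p = 0.0131). Cxcl17, a mucosal ligand, had 3.83 and 3.55 in the T2 animals, against 8.06 and 8.28 in the others, a difference of -4.47 ± 0.15 (adjusted p = 1.45e-08). All other samples of the study had at most 3.51 for Cxcl17, so P34 and P36 alone carried a high level. Its call of adenoma against fibroblasts (3.01 ± 1.00, adjusted p = 0.0272) was lost without P34 (adjusted p = 0.0693), without P36 (adjusted p = 0.0654) and without any of the 3 fibroblast samples.

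Ccl25 had 7.17 and 6.96 in the T2 animals, against 6.00 and 6.03, a difference of 1.05 ± 0.23 (adjusted p = 0.0156). The calls of Ccl25 and Ccl6 were lost without any single one of the 4 animals (adjusted p of 0.0595 to 0.129 and of 0.0562 to 0.11). Ccl5 had 4.88 and 5.51, against 3.19 and 2.63, and Cxcr4 had 6.82 and 6.86, against 4.87 and 5.74, and neither was called although the pairs did not overlap. Macrophage markers averaged 3.82 and 3.80 in the T2 animals, against 3.74 and 3.67, with 1 of 13 higher, and epithelial markers averaged 10.50 and 10.63, against 9.77 and 9.51. The part of these markers in the differences was not tested.

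**Figure D5:**
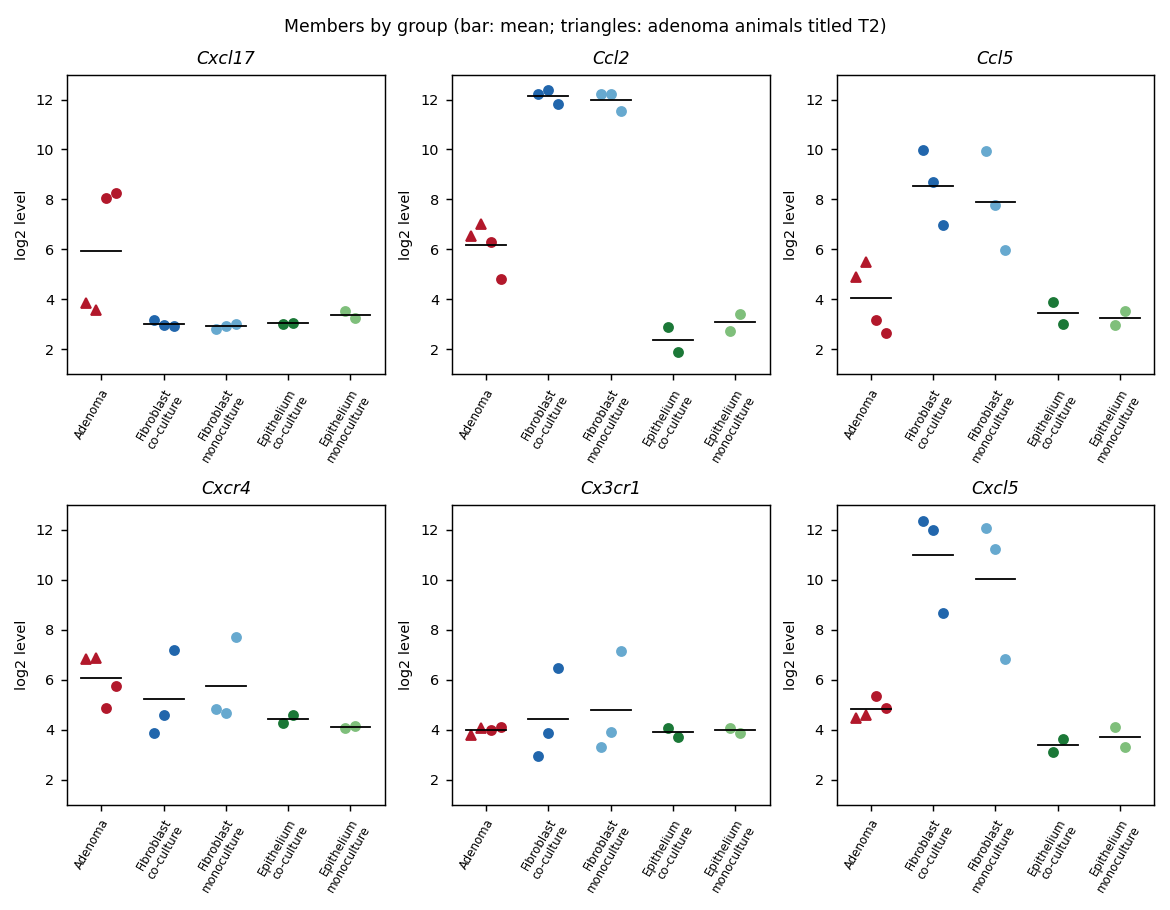
Log2 level of 6 members (panels) in each sample (points) of the 5 groups, with the group mean as a bar and triangles for adenoma animals P21 and P23, whose titles carry T2. Cxcl17 is high in P34 and P36, Cxcr4 and Cx3cr1 are high in both cultures of fibroblast animal Pl_III (7.18 and 7.71, 6.46 and 7.16), and Cxcl5 is lowest among fibroblasts in Pl_III (8.65 and 6.83).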

How the data were processed

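Total RNA was hybridised to 1-colour whole-transcript arrays after amplification and biotin labelling of 150 ng, per the labels' protocols. The deposited values are log2 probe set levels made by the authors with RMA, per the submitters' processing notes. RMA normalises arrays to a common distribution, which hides a shift of most genes and compresses low values. Its version and the array library file were not given in the sources used here, nor was a build. The table held 41345 probe sets on 16 arrays. Gene names came from the platform annotation: 23521 probe sets had 1 symbol, 1814 several and 16010 none. Of the 55 members 54 had 1 such probe set, and Ccl27a was read from the brightest.

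The technical repeats of P21 and P34 were averaged, leaving 14 biological samples of 9 animals. Genes were tested where a group mean exceeded the 30th percentile of probe set means. A mean for each of the 5 groups was fitted with limma 3.58.1 in R 4.3.3, with a shared spread, empirical Bayes moderation, 2-sided tests and Benjamini-Hochberg adjustment. The fit was tested on simulated data with independent samples, which leaves out the animals shared between cultures and so does not test that part of the design. Cultures of an animal are paired by the labels, and their deviations correlated at 0.33 (epithelium) and 0.51 to 0.79 (fibroblasts), so the animal entered an alternative as a block. Per-sample values are given for members called in co-culture, the 10 largest called differences each way between fibroblasts and epithelium and the 6 largest in each adenoma comparison, while Cxcl3, Ccl6, Ccl9, Cxcr4 and other members outside this rule were described after their values were seen. Pathway lists are given with up to 4 genes of the smallest p. Members, lists and tests were chosen with earlier results of these data known. Alternatives changed the dim filter, samples fitted, normalisation, variance prior, probe set rule, repeats and samples left out.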

Additional observations from a re-analysis of the deposited data

Results flagged for a closer look

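In 5 of the 46 tested members 1 adenoma animal stood apart from the other 3, where chance alone flags about 1 in 20. The share of all genes flagged by this rule was not counted, so no excess among the members can be read from it. P34 was high for the scavenging receptor Ackr4 (2.76, against 2.27 to 2.32) and for Ccl1 (3.00, against 2.77 to 2.80). P23 was high for Ccl20 (5.51, against 5.39 to 5.40) and for Cxcl12 (3.39, against 2.78 to 2.87), and low for Cxcl2 (2.90, against 3.39 to 3.49).

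In 5 members co-culture shifted both epithelial animals one way and all 3 fibroblast animals the other, or 10.9% of the 46 tested, beside 10.7% of all genes, so the share is near the background. The response of epithelium minus that of fibroblasts was -2.77 for Ccl6, -1.25 for Cxcl1, -1.15 for Ccl11, -0.38 for Ccl4 and 0.84 for Cxcr4. Ccl4 differed by only -0.01 in each epithelial animal. The interaction term in limma called none of them (adjusted p = 0.691 for Ccl6, 0.776 for Ccl11 and 0.898 for Cxcr4), and a replicate block for the animal gave calls for Ccl6 and Ccl11.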

How the results depend on the processing

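Of 1038 repeats of called member differences, 928 kept their direction and call, 109 kept their direction without the call, and 1 changed sign: Cxcl16 in fibroblasts minus epithelium, which was -0.0891 between the co-cultures. Of 63 called differences 44 held in every alternative. Members called in co-cultured epithelium (2) became 5 with the replicate block, 0 with only the compared groups, 0 without P28 and Pl_III, and 0 to 1 with a sample left out. The interaction (0) became 5 with the replicate block and 1 with only the compared groups. Adenoma against co-cultured epithelium (4) and the T2 comparison (4) became 8 each with only the compared groups, and the T2 count was 2 to 3 with an animal left out. The replicate block further added Cxcl3 and Cxcl9 in fibroblasts against epithelium (24) and removed Ccr6 and Ccr9 in adenoma against monocultured epithelium (6). The cause was not tested. Fewer groups or samples leave fewer degrees of freedom, and where 1 sample remained it was assumed to vary like the other groups. Replicates number 2 to 4, and members near the dim level give compressed differences.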
